A study of Bos indicus and Bos taurus with 17 samples.

Results

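The genes described here move calcium and phosphate through the milk-secreting cell. They were the plasma membrane calcium pumps ATP2B1 and ATP2B2, the Golgi calcium pump ATP2C1, the endoplasmic reticulum (ER) calcium pump ATP2A2, the store-operated calcium channel ORAI1 with the ER calcium sensors STIM1 and STIM2, the phosphate transporters SLC34A2 and SLC20A1, and the calcium-sensing receptor CASR. They were looked up by gene symbol among the 21631 distinct names of the expression table, alone or as part of a joined name. In all, 9 of the 10 genes were found, and CASR was not found among the names and was not analysed here. ATP2B2 and ATP2A2 each had more than 1 entry, and the entry with the highest mean was used.

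Milk carries far more calcium and phosphate than blood plasma, most of it bound in casein micelles that are assembled in the Golgi. Calcium enters the secretory cell from the blood side, is kept low in the cytosol by binding proteins and pumps, and is loaded into the Golgi by the ATP2C pumps or exported across the apical membrane, where ATP2B2 is the main pump in lactating mice. Phosphate reaches the Golgi with the nucleotide sugars used for lactose synthesis, and SLC34A2 is a sodium-phosphate cotransporter of the apical membrane of secretory epithelia.

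Messenger RNA was sequenced from epithelial cells that had been captured from fresh milk with beads carrying an antibody against cytokeratin 18 (KRT18). The cows were Kashmiri, a small local breed labelled Bos indicus, and Jersey, a dairy breed labelled Bos taurus, and the question was how milk-related expression differs between breeds and over lactation. Milk was taken in early, mid and late lactation, on days 15, 90 and 250 in milk (D15, D90 and D250), which gave 6 groups. The labels named 3 samples in each group except Jersey D90, for which they named 2, or 17 in all. The study's methods describe equal numbers in every group, so how many libraries the Jersey D90 value combines is not known. No group received a treatment, and both breeds were kept on the same farm. Samples of a stage shared a calendar month in the labels, so season and lactation stage cannot be told apart, and the labels mixed cows in the second and the third lactation. Values were FPKM, the sequenced fragments of a gene scaled to the length of its transcripts and to the mapped reads of the library, with 1 value per gene and group made by the authors. Because each group had 1 value, there was no spread between cows, and every level and ratio given here is a description without an error or a test. The depth behind each value is unknown.

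Markers of the labelled cell type differed widely in level between groups. The summed FPKM of 10 epithelial markers (of 11 listed) was lowest in Jersey at D90 (98.2) and highest in Kashmiri at D15 (5853), while the sum of 8 neutrophil markers (of 10) was lowest in Kashmiri at D15 (177) and highest in Jersey at D250 (14726). In these bulk samples fewer epithelial cells and less RNA per cell cannot be told apart. KRT18, the antigen used for capture, was at 51.3, 9.13 and 11.5 FPKM in Kashmiri at D15, D90 and D250, and at 33.7, 1.59 and 4.51 FPKM in Jersey. LSP1 and ITGB2 (CD18), white blood cell markers of the study's purity check, lay between 68.6 and 334 FPKM and between 46.5 and 179 FPKM. LSP1 was above KRT18 in every group. The study made that check by quantitative PCR on D90 samples and proposes minimal contamination by other cell types. CSN2, the beta-casein gene that every milk-secreting cell expresses strongly, was listed at 0 in every group but Jersey D90; an exact 0 in such a table can be a failed estimate, so CSN2 was not used as a measure of epithelial content here. The 2 red blood cell markers found (of 4) summed to at most 0.633 FPKM.

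The level of the 9 genes spanned more than 2 orders of magnitude. FPKM is scaled to transcript length, so the genes are ranked here, but only as an approximate order. SLC20A1 had the highest mean over the 6 groups, 63.5 FPKM, followed by ORAI1 at 31.9, ATP2B1 at 20.0, SLC34A2 at 19.0 and ATP2A2 at 14.5. ATP2C1 averaged 7.83 FPKM, STIM1 7.73 and STIM2 1.86. ATP2B2, the pump known as the main apical route of milk calcium in mice, averaged 0.504 FPKM and reached 1 FPKM in none of the groups. SLC34A2 varied most, 204-fold between its highest and lowest group, and ATP2C1 varied least in FPKM, 2.10-fold. The lowest SLC34A2 value, 0.353 FPKM in Jersey at D90, was under 1 FPKM, so the size of its range is uncertain.

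**Figure D1:**
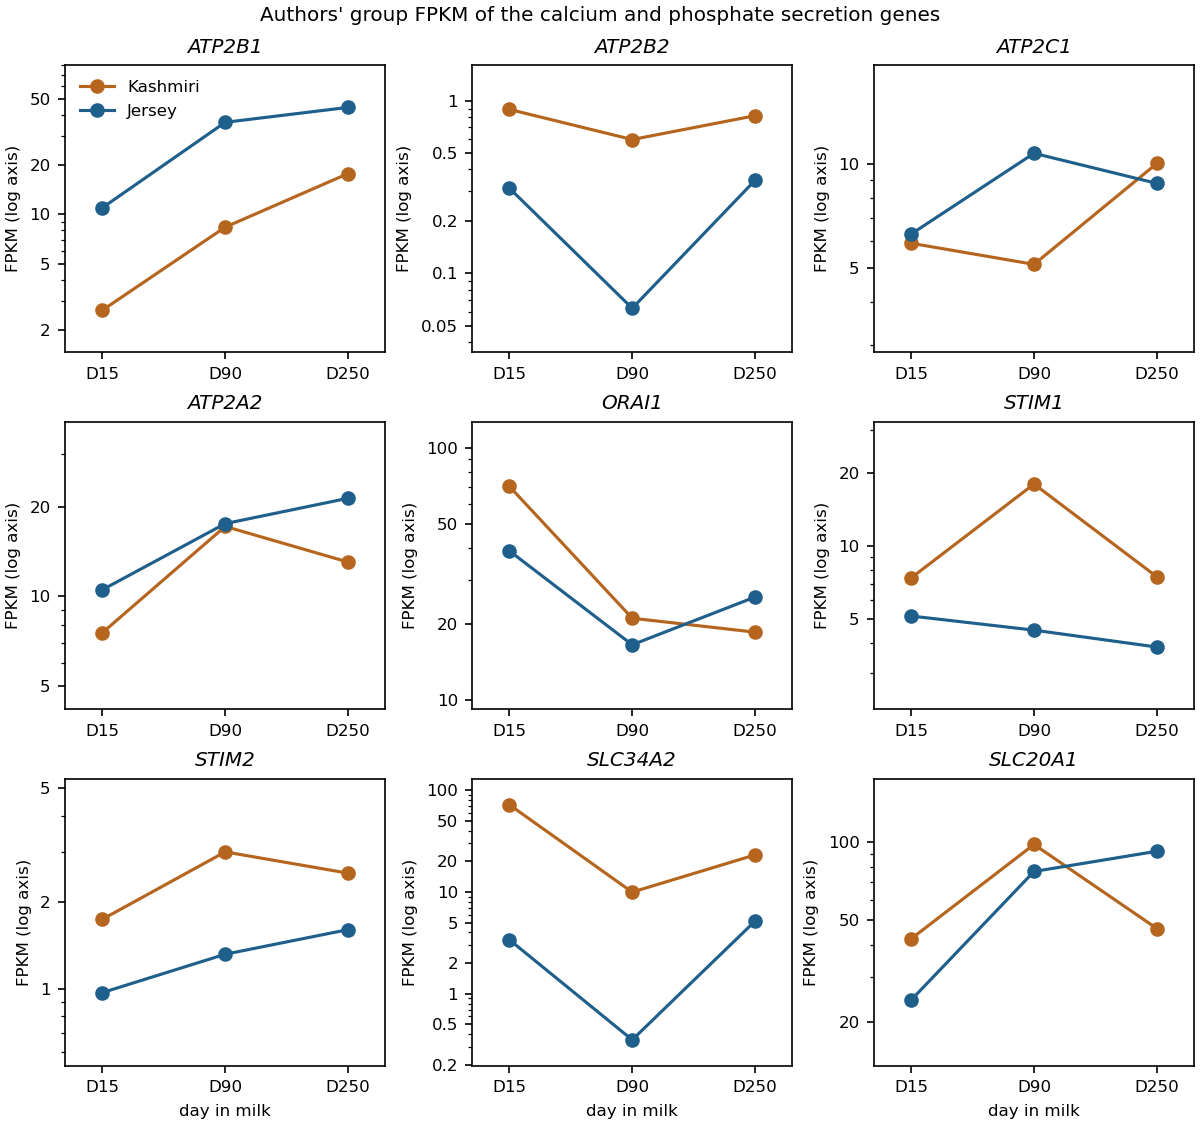
FPKM of the 9 genes found (vertical axis, log scale, a panel each) on D15, D90 and D250 in Kashmiri (brown) and Jersey (blue), each point being the authors' single value for a group, without an error. SLC34A2 was lowest at D90 in both breeds, and ATP2B1 was higher on each later day in both. The Kashmiri line lies above the Jersey line on all 3 days for SLC34A2, STIM1, STIM2 and ATP2B2, the last under 1 FPKM throughout. The share of all genes with this order was not counted.

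Groups were compared as log2 ratios of FPKM with a pseudocount of 1, in 9 comparisons: each pair of days within a breed, and Jersey over Kashmiri on each day. A gene was considered when it reached 1 FPKM in either group and was said to be past the limit at an absolute log2 ratio of 2, or 4-fold. Of the 9 genes, 8 were considered in every comparison, and ATP2B2 in none. Among the 81 pairs of gene and comparison, 5 were past the limit, and they belonged to SLC34A2 and ATP2B1. The 81 include the 9 pairs of ATP2B2, which could not be past it because that gene was not considered. Shares of all genes are given with each comparison below. The comparisons within a breed share groups with each other and with the comparisons between breeds, so their values are not independent.

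Within Kashmiri, SLC34A2 was the single member past the limit at D90 over D15, downwards, where 5.16% of all 11297 genes considered were lower and 2.34% higher by that much. No member was past it at D250 over D90, where 0.859% of all genes were higher and 1.12% lower. At D250 over D15, ATP2B1 was past it upwards, beside 1.85% of all genes higher and 2.2% lower. Counting by sign alone, 5 of the 8 members were above their D15 level at D90, 6 were above it at D250, and 3 were above their D90 level at D250, while 49.8%, 48.1% and 52.3% of all genes considered were higher in these comparisons. The median log2 ratio of the members was 0.81 at D90 over D15, -0.18 at D250 over D90 and 0.25 at D250 over D15, beside -0.01, 0.03 and -0.04 for all genes considered.

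Within Jersey, no member was past the limit at D90 over D15, where 2.98% of all genes were higher and 3.78% lower. SLC34A2 was past it upwards at D250 over D90, with 3.72% of all genes higher and 0.466% lower. None was past it at D250 over D15, where 9.17% of all genes were higher and 3.42% lower. The members' medians were 0.46, 0.26 and 0.46, beside -0.07, 0.15 and 0.07 for all genes.

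Between breeds, SLC34A2 was past the limit, lower in Jersey, at D15 and at D90. The background was 6.45% of genes higher in Jersey and 2.12% lower at D15, and 6.58% higher and 5.17% lower at D90. At D250 no member was past the limit, while 10.9% of all genes were higher in Jersey and 1.37% lower. The members' medians were -0.46, -0.34 and 0.13 at D15, D90 and D250, beside -0.13, -0.03 and -0.10 for all genes. Of all genes considered, 43.3%, 48.5% and 46.2% were higher in Jersey on these days. For some members all Kashmiri values were above all Jersey values, and the share of all genes with that order was not counted. Rescaling the groups to their summed FPKM without the milk protein genes moved the median of all genes to between -0.74 (Jersey over Kashmiri at D250) and 0.81 (Kashmiri D250 over D15). That sum ran from 477136 FPKM in Kashmiri at D250 to 961053 in Kashmiri at D15. With the milk protein genes it was 490166 and 969227, so as listed they held a small part of the total in these groups. CSN2 was listed at 0 in both groups, which can be a failed estimate. The paper describes casein and whey protein genes as highly expressed in both breeds, so their true part is not known from these values. Rescaling by the upper quartile moved the median to between -0.52 and 0.20. Directions that changed under either rescaling are named with each gene.

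**Figure D2:**
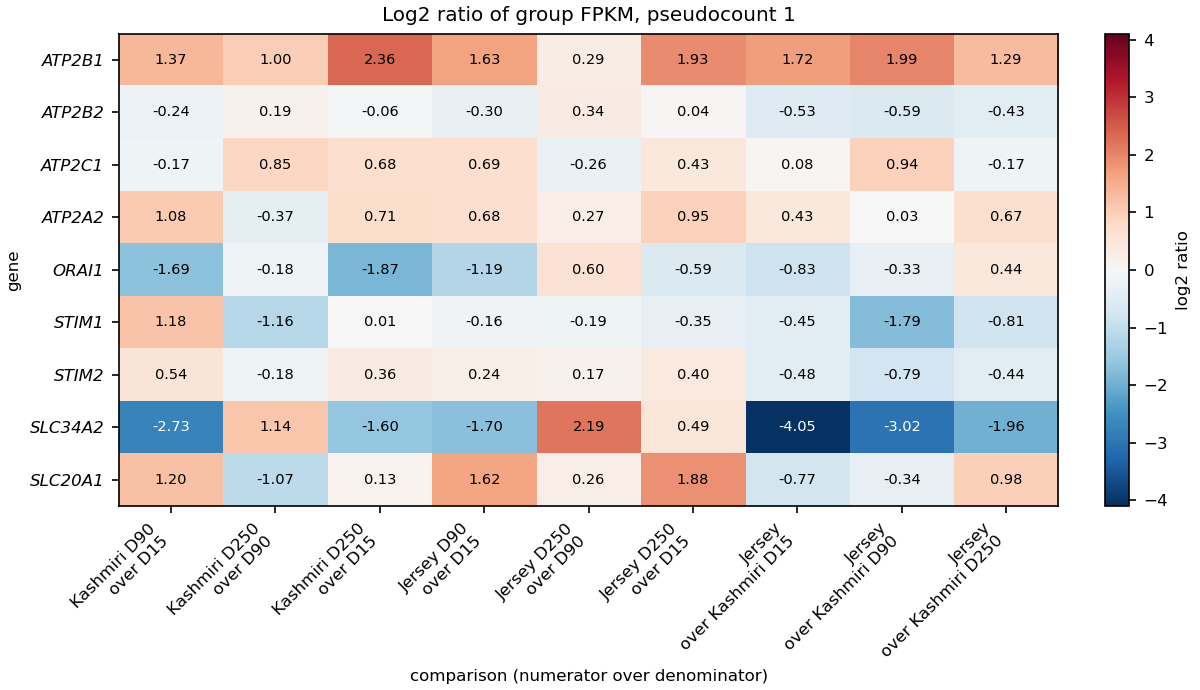
Log2 ratio of group FPKM with a pseudocount of 1 for the 9 genes found (rows) in the 9 comparisons (columns, numerator over denominator), red for higher and blue for lower in the numerator, with no error or test. The strongest blue cells are SLC34A2 in Jersey over Kashmiri at D15 (-4.05) and D90 (-3.02), and the strongest red cell is ATP2B1 in Kashmiri D250 over D15 (2.36).

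SLC34A2, the apical sodium-phosphate cotransporter, was the member whose level differed most between groups. It was at 71.9 FPKM in Kashmiri at D15, 9.96 at D90 and 23.1 at D250, and at 3.39, 0.353 and 5.18 FPKM in Jersey on the same days. The 3 Kashmiri values were all above the 3 Jersey values, and D90 was the lowest day in each breed. In Kashmiri at D15, 88.8% of the genes with 1 FPKM or more were lower than SLC34A2, and in Jersey at D15, 26.8% were.

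The breed difference in SLC34A2 was 21.2-fold at D15 (log2 ratio -4.05), 28.2-fold at D90 (-3.02) and 4.46-fold at D250 (-1.96, just short of the limit), lower in Jersey each time. At D15, 0.170% of the genes considered had a lower ratio than SLC34A2. The ratio stayed negative under the 4 alternatives that could change it (another pseudocount and 3 rescalings), from -4.36 to -3.12 at D15, from -4.47 to -2.04 at D90 and from -2.68 to -1.34 at D250. Over the stages, SLC34A2 was 7.22-fold lower at D90 than at D15 in Kashmiri (log2 ratio -2.73) and 9.61-fold lower in Jersey (-1.70, which the pseudocount pulls towards 0). At D250 it was 14.7-fold higher than at D90 in Jersey (2.19) and 2.32-fold higher in Kashmiri (1.14). The 28.2-fold, 9.61-fold and 14.7-fold values all use the Jersey D90 level of 0.353 FPKM, under 1 FPKM, so their size is uncertain.

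The low D90 values of SLC34A2 went with low epithelial markers. Per 1000 FPKM of summed epithelial markers, SLC34A2 was at 12.3, 14.0 and 8.89 FPKM in Kashmiri at D15, D90 and D250, and at 1.26, 3.60 and 3.72 FPKM in Jersey. On this scale the range over groups was 11.1-fold instead of 204-fold, D90 was no longer the lowest day in either breed, and all Kashmiri values were still above all Jersey values. Rescaled to 5 of the epithelial genes, the log2 ratio of D90 over D15 turned from -2.73 to 0.41 in Kashmiri and from -1.70 to 1.49 in Jersey. The medians of all genes were then 2.54 and 4.29, above both values of SLC34A2. The ratio of D250 over D90 turned from 2.19 to -0.10 in Jersey and from 1.14 to -0.81 in Kashmiri, beside medians of -3.36 and -1.72. The breed ratio at D15 was -3.12, beside a median of 0.57. These 5 genes were KRT8, KRT18, KRT19, EPCAM and CDH1. KRT19 made up most of their sum, 3195 of 3343 FPKM in Kashmiri at D15 and 38.2 of 55.0 in Jersey at D90. This rescaling therefore rests mainly on KRT19.

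**Figure D3:**
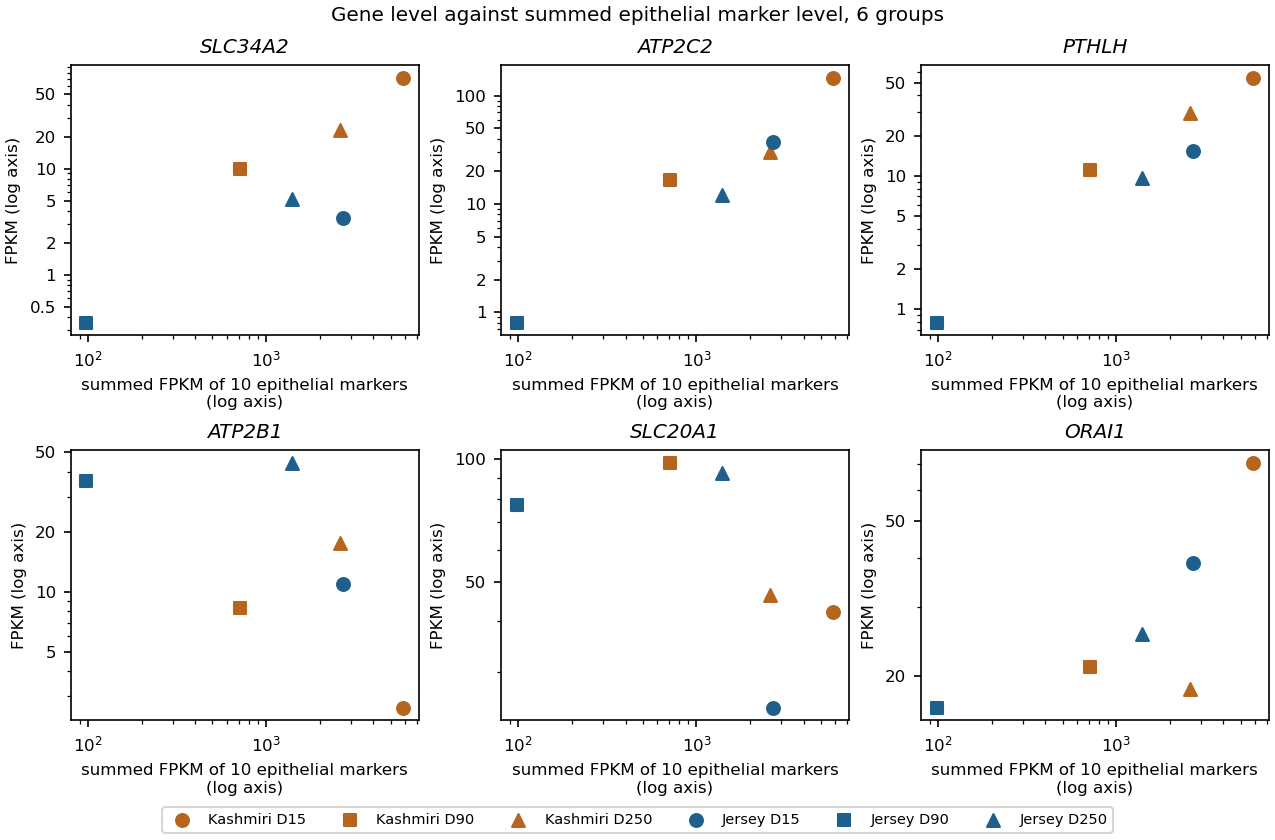
FPKM of 6 genes (vertical axes, log scale) against the summed FPKM of 10 epithelial markers (horizontal axes, log scale), with a point for each of the 6 groups, brown for Kashmiri and blue for Jersey, the shape giving the day. SLC34A2, ATP2C2 and PTHLH were lowest in Jersey at D90, where the marker sum was 98.2, and highest in Kashmiri at D15, where it was 5853, and the 3 Kashmiri points of SLC34A2 lie above the Jersey points; ATP2B1 was lowest in the group with the highest marker sum.

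SLC20A1 encodes PiT-1, a sodium-phosphate cotransporter that most cell types use to take up phosphate. It was at 42.2, 98.2 and 46.3 FPKM in Kashmiri at D15, D90 and D250, and at 24.4, 77.1 and 92.4 FPKM in Jersey. The level at D90 was above that at D15 in both breeds, 2.32-fold in Kashmiri (log2 ratio 1.20) and 3.16-fold in Jersey (1.62), and this direction held with the other pseudocount and under the 3 rescalings. From D90 to D250 the breeds parted: the log2 ratio was -1.07 for Kashmiri and 0.26 for Jersey, the latter becoming -0.15 when rescaled to the sum without milk proteins.

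The makeup of the phosphate cotransporters differed between groups. SLC34A2 made up 59.5%, 8.91% and 30.6% of the summed FPKM of SLC34A1, SLC34A2, SLC34A3, SLC20A1 and SLC20A2 in Kashmiri at D15, D90 and D250, and 12%, 0.445% and 5.25% in Jersey. Kashmiri at D15 was the single group in which SLC34A2 was the largest of the 5, and SLC20A1 made up from 61.4% to 97.3% in the others. SLC20A2, which encodes the related PiT-2, was lower in Jersey than in Kashmiri at D15, 0.508 against 5.17 FPKM (log2 ratio -2.03).

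ATP2B1, the plasma membrane calcium pump found in nearly all cell types, was higher in Jersey, where SLC34A2 was lower. It was at 2.62, 8.35 and 17.6 FPKM in Kashmiri at D15, D90 and D250, and at 10.9, 36.1 and 44.4 FPKM in Jersey. It was higher in Jersey than in Kashmiri on each day, 4.18-fold at D15 (log2 ratio 1.72), 4.32-fold at D90 (1.99) and 2.52-fold at D250 (1.29). All 3 breed ratios and the ratios of both later days over D15 in each breed stayed positive with the other pseudocount and under the 3 rescalings.

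Within Kashmiri, ATP2B1 was 6.73-fold higher at D250 than at D15 (log2 ratio 2.36), past the limit, and 99.0% of the genes considered had a lower ratio. Within Jersey the same ratio was 4.06-fold (1.93), just short of it. The step from D90 to D250 in Jersey was small, 0.29 on the log2 scale, and became -0.11 when rescaled to the sum without milk proteins. Ordered by ATP2B1, the groups ran from Jersey D250 through Jersey D90, Kashmiri D250, Jersey D15 and Kashmiri D90 to Kashmiri D15.

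The summed neutrophil markers had nearly the same group order as ATP2B1. Their FPKM summed to 177, 497 and 615 in Kashmiri at D15, D90 and D250, and 4794, 5996 and 14726 in Jersey. The order of the 6 groups by this sum was that by ATP2B1, except that Jersey D15 and Kashmiri D250 changed places. How many of all genes come as near to this order was not counted. Single markers did not all follow: S100A8 was at 1652 FPKM in Jersey at D15 and 1276 at D90, and MMP9 at 70.1 FPKM in Jersey at D90 and 14.8 at D250. The macrophage markers summed to 70.2, 379 and 388 FPKM in Kashmiri and to 599, 1927 and 1801 FPKM in Jersey, also higher in Jersey on each day. All 8 neutrophil and 6 macrophage markers found were above 0 in every group, and the part of these cells in the level of ATP2B1 was not tested.

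ATP2B2 was near the bottom of the range in every group. It was at 0.890, 0.595 and 0.818 FPKM in Kashmiri at D15, D90 and D250, and at 0.312, 0.0629 and 0.346 FPKM in Jersey. The Kashmiri values were all above the Jersey values, but none reached 1 FPKM, and the second entry of that name was at most 0.225 FPKM. Its ratio of D250 over D15 in Kashmiri, -0.06 on the log2 scale, became 0.42 by the sum without milk proteins and 0.07 by the upper quartile. Among the 4 plasma membrane pumps ATP2B1 to ATP2B4, ATP2B1 made up 54.8%, 70.2% and 72.5% of the summed FPKM in Kashmiri and 83.7%, 88.7% and 92.0% in Jersey. ATP2B2 made up 18.6% in Kashmiri at D15, its largest share, and 0.155% in Jersey at D90, its smallest. Most of the remainder was ATP2B4, another pump of broad expression, at 1.27 to 5.87 FPKM.

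ATP2C1, the Golgi pump for calcium and manganese that most cells carry, had the smallest range of the members in FPKM. It was at 5.91, 5.13 and 10.1 FPKM in Kashmiri at D15, D90 and D250, and at 6.28, 10.8 and 8.81 FPKM in Jersey. None of its 9 log2 ratios reached 1 in size, the largest being 0.94 for Jersey over Kashmiri at D90. At D15 the breeds were at 1.06-fold of each other, and the sign of that ratio changed with rescaling by the upper quartile. The ratio of D90 over D15 in Kashmiri, -0.17, became 0.09 by the sum without milk proteins. Per 1000 FPKM of epithelial markers ATP2C1 ranged 109-fold, more than SLC34A2 on that scale.

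The epithelial Golgi pump ATP2C2, from the wider list of pathway genes, behaved quite differently from ATP2C1. It was at 147, 16.6 and 30.2 FPKM in Kashmiri and at 37.3, 0.796 and 12.1 FPKM in Jersey. It was past the limit downwards at D90 over D15 in both breeds, with log2 ratios of -3.07 in Kashmiri and -4.42 in Jersey, and lower in Jersey at D90 (-3.30). Per 1000 FPKM of epithelial markers its range over groups was 3.10-fold, against 185-fold in FPKM. ATP2C1 made up 3.86%, 23.6% and 25.0% of the 2 Golgi pumps in Kashmiri, and 14.4%, 93.1% and 42.2% in Jersey, and Jersey at D90 was the single group with more ATP2C1 than ATP2C2.

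ATP2A2 encodes SERCA2, which refills the ER with calcium in most cell types. It was at 7.56, 17.2 and 13.0 FPKM in Kashmiri at D15, D90 and D250, and at 10.5, 17.5 and 21.3 FPKM in Jersey. D15 was the lowest day in each breed, and the D90 over D15 ratio was 2.27-fold in Kashmiri and 1.66-fold in Jersey. The breed ratio at D90 was 0.03 on the log2 scale and turned negative by the upper quartile, and that at D250, 0.67, became -0.05 by the sum without milk proteins. D250 over D90 was -0.37 in Kashmiri and 0.27 in Jersey, and both signs changed under the latter rescaling, to 0.29 and -0.12.

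Of the SERCA pumps, ATP2A3, a form common in blood cells and some epithelia, shared the total with ATP2A2. ATP2A2 made up 37.1%, 37.0% and 55.0% of their summed FPKM in Kashmiri and 38.2%, 65.4% and 75.8% in Jersey. ATP2A1, the fast muscle form, was at most 0.166 FPKM. ATP2A3 was highest in Kashmiri at D90, 29.0 FPKM, and lowest in Jersey at D250, 6.67 FPKM.

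**Figure D4:**
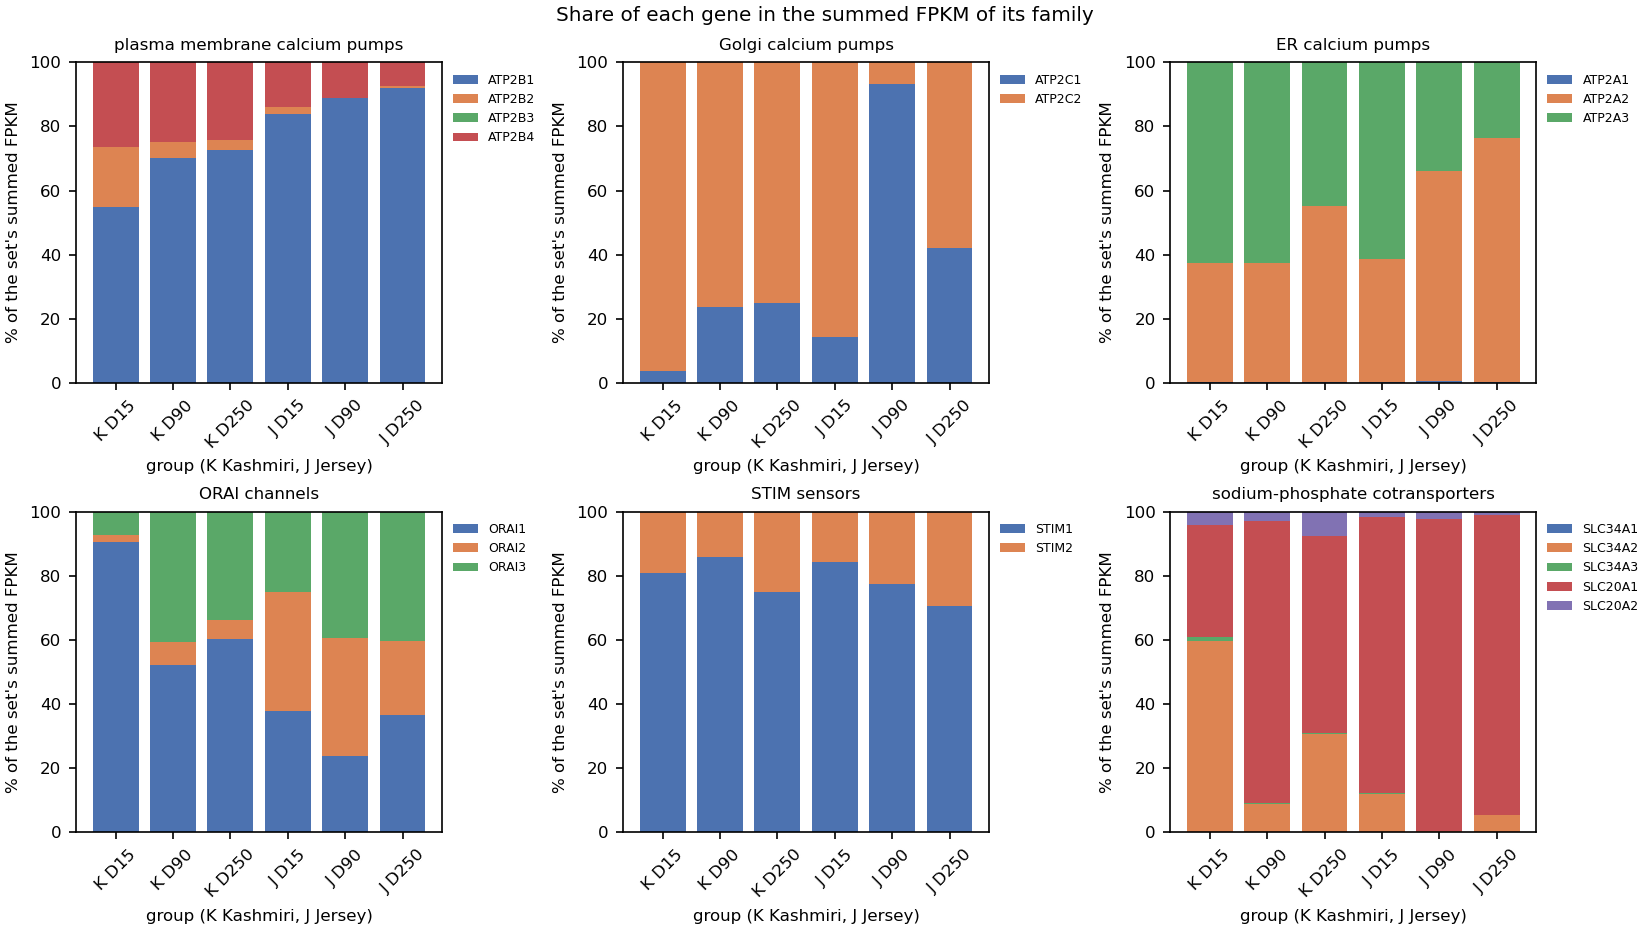
Share of each gene in the summed FPKM of its family (vertical axes, percent) in the 6 groups (K Kashmiri, J Jersey), in a panel for each of 6 families, from the authors' single value per group. ATP2B1 lay between 54.8% of the plasma membrane pumps in Kashmiri at D15 and 92.0% in Jersey at D250, ATP2C1 exceeded ATP2C2 in Jersey at D90 alone, and SLC34A2 was the largest phosphate cotransporter in Kashmiri at D15 alone.

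ORAI1, the pore of the store-operated calcium channel and a proposed route of calcium entry into the milk-secreting cell, was highest in early lactation. It was at 70.4, 21.1 and 18.6 FPKM in Kashmiri at D15, D90 and D250, and at 39.0, 16.5 and 25.6 FPKM in Jersey. D15 was the highest day in each breed. ORAI1 was 3.34-fold lower at D90 than at D15 in Kashmiri (log2 ratio -1.69) and 2.36-fold lower in Jersey (-1.19), and both ratios turned positive when rescaled to 5 epithelial genes.

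Between breeds, ORAI1 was lower in Jersey at D15 (log2 ratio -0.83) and at D90 (-0.33). With the 5 epithelial genes the D90 ratio was 2.29, beside a median of 2.34 for all genes. ORAI1 was higher in Jersey at D250 (0.44), which became -0.29 by the sum without milk proteins and -0.04 by the upper quartile. At D250 over D90 the ratio was -0.18 in Kashmiri (0.49 by the sum without milk proteins) and 0.60 in Jersey. Per 1000 FPKM of epithelial markers, ORAI1 ranged 23.6-fold over the groups, more than its 4.25-fold range in FPKM, whereas SLC34A2 and ATP2C2 ranged less on that scale.

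The ORAI family differed in makeup between the breeds. ORAI1 made up 90.3%, 52.1% and 60.2% of the summed FPKM of ORAI1, ORAI2 and ORAI3 in Kashmiri at D15, D90 and D250, and 37.7%, 23.7% and 36.4% in Jersey. ORAI2, a related channel subunit prominent in immune cells, was at 1.82, 2.96 and 1.85 FPKM in Kashmiri and at 38.6, 25.7 and 16.2 FPKM in Jersey. Its breed ratio was past the limit on all 3 days (log2 3.81, 2.76 and 2.60). ORAI3, the remaining subunit, was at 5.70, 16.4 and 10.4 FPKM in Kashmiri and at 25.9, 27.4 and 28.4 FPKM in Jersey, past the limit between breeds at D15 (2.00).

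STIM1 senses the calcium content of the ER and opens the ORAI channels. It was at 7.40, 18.0 and 7.48 FPKM in Kashmiri at D15, D90 and D250, and at 5.16, 4.51 and 3.84 FPKM in Jersey. Kashmiri at D90 stood above all other groups, 2.41-fold over the next. As a log2 ratio of Jersey over Kashmiri, STIM1 stood at -0.45 on D15, -1.79 on D90 and -0.81 on D250. Rescaled to 5 epithelial genes it was 0.24 on D15 and 0.65 on D90, beside medians of 0.57 and 2.34 for all genes. In Jersey the ratio of D90 over D15, -0.16, became 0.06 by the sum without milk proteins.

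The summed T and NK cell markers had nearly the same group order as STIM1. Their summed FPKM (6 of 6 found) was 305, 1299 and 294 in Kashmiri at D15, D90 and D250, and 205, 142 and 74.7 in Jersey. The order of the groups by this sum was that by STIM1, except that Kashmiri D15 and D250, at 7.40 and 7.48 FPKM of STIM1, changed places. How many of all genes come as near to this order was not counted. CD3E made up the largest part of the Kashmiri D90 sum, 659 FPKM, whereas NKG7 was at 63.3 and 71.0 FPKM in Jersey at D15 and D90 and at 25.4 FPKM in Kashmiri at D15, where STIM1 was higher. The 4 B cell markers also summed highest in Kashmiri at D90, 66.7 FPKM. All 10 of these markers were above 0 in every group, and their part in the level of STIM1 was not tested.

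STIM2, which responds to smaller falls of ER calcium and tunes resting calcium, was the lowest member after ATP2B2. It was at 1.74, 3.00 and 2.53 FPKM in Kashmiri, and at 0.968, 1.32 and 1.61 FPKM in Jersey. The Kashmiri values were all above the Jersey values, although Kashmiri D15 and Jersey D250 lay 1.09-fold apart. With the 5 epithelial genes the breed ratio turned positive, to 1.39 at D90 and 0.04 at D250. The medians of all genes were then 2.34 and 0.52. The ratio of D250 over D90 changed sign by the sum without milk proteins, from -0.18 to 0.35 in Kashmiri and from 0.17 to -0.08 in Jersey. STIM1 made up between 70.5% and 85.7% of the 2 sensors in every group.

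A wider list of 80 genes of calcium and phosphate handling was examined in the same way, and 70 were found by name. Between 44 and 47 of them were considered in a comparison, and their median log2 ratio lay between -0.36 and 0.31. Within Kashmiri, 0 of 44 were past the limit upwards at D90 over D15 and 4 downwards, beside 2.34% and 5.16% of all genes. At D250 over D90 it was 1 of 45 upwards and 0 downwards (0.859% and 1.12% of all genes), and at D250 over D15 1 of 46 and 2 (1.85% and 2.2%). Within Jersey, 1 of 45 was past it upwards at D90 over D15 and 4 downwards (2.98% and 3.78%), 7 of 45 and 0 at D250 over D90 (3.72% and 0.466%), and 6 of 45 and 0 at D250 over D15 (9.17% and 3.42%). In Jersey over Kashmiri the counts were 2 of 47 and 2 at D15 (6.45% and 2.12%), 6 of 46 and 4 at D90 (6.58% and 5.17%), and 9 of 47 and 0 at D250 (10.9% and 1.37%). These counts carry no test.

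The 4 genes past the limit downwards at D90 over D15 were the same in both breeds: ATP2C2, CRACR2B, SEPT4 and PTHLH. The share of all genes past it downwards in both breeds was not counted, so this overlap cannot be read as a trait of these genes. CRACR2B, an EF-hand protein related to a regulator of the ORAI channel, was at 43.0, 5.56 and 27.0 FPKM in Kashmiri and at 16.7, 0.727 and 8.79 FPKM in Jersey. SEPT4, a septin, was at 158, 10.9 and 37.6 FPKM in Kashmiri and at 28.1, 0.999 and 13.2 FPKM in Jersey. PTHLH, which encodes the parathyroid hormone-related protein that the lactating gland releases to draw calcium from bone, was at 54.5, 11.1 and 29.4 FPKM in Kashmiri and at 15.4, 0.786 and 9.66 FPKM in Jersey.

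Like SLC34A2, these 4 genes were highest in Kashmiri at D15 and lowest in Jersey at D90, the groups with the highest and the lowest epithelial marker sum. Per 1000 FPKM of epithelial markers, ATP2C2 was still lower at D90 than at D15, 23.4 against 25.1 FPKM in Kashmiri and 8.11 against 13.9 in Jersey. PTHLH was instead higher at D90 on that scale, 15.6 against 9.31 FPKM in Kashmiri and 8.01 against 5.74 in Jersey, and its range over groups was 2.72-fold in place of 69.3-fold. SLC34A2 kept a wider range on that scale, 11.1-fold, than either.

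A further group of wider-list genes was highest in Jersey at D250. RYR1, an ER calcium release channel best known from muscle, was at 0.374, 1.22 and 0.495 FPKM in Kashmiri and at 4.06, 8.57 and 76.9 FPKM in Jersey. The inositol trisphosphate receptor ITPR1 was at 29.7 FPKM in Jersey at D250 and at most 3.43 FPKM in the other 5 groups, and ITPR2 at 9.06 and at most 1.23. SLC8B1, the mitochondrial sodium-calcium exchanger, was at 8.35, 7.52 and 8.09 FPKM in Kashmiri and at 28.2, 49.0 and 155 FPKM in Jersey. SLC8A1, a plasma membrane exchanger, reached 6.55 FPKM in Jersey at D250. Jersey D250 was also the group with the highest neutrophil marker sum, and the part of those cells was not tested.

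Of the hormonal control genes, the vitamin D receptor gene VDR was at 24.1, 5.68 and 18.2 FPKM in Kashmiri and at 13.0, 29.0 and 77.2 FPKM in Jersey. CYP27B1, which makes active vitamin D, was at 0.191, 0.704 and 0.584 FPKM in Kashmiri and at 2.77, 26.7 and 19.5 FPKM in Jersey. The breed ratio of both was past the limit at D90 (log2 2.17 for VDR and 4.02 for CYP27B1) and at D250 (2.03 and 3.70). HTR7, a serotonin receptor gene, was at 7.26 FPKM in Jersey at D90 and 7.48 at D250, against 0.374 and 1.09 in Kashmiri. The macrophage and neutrophil marker sums were also higher in Jersey on each day, and their part in these levels was not tested.

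**Figure D5:**
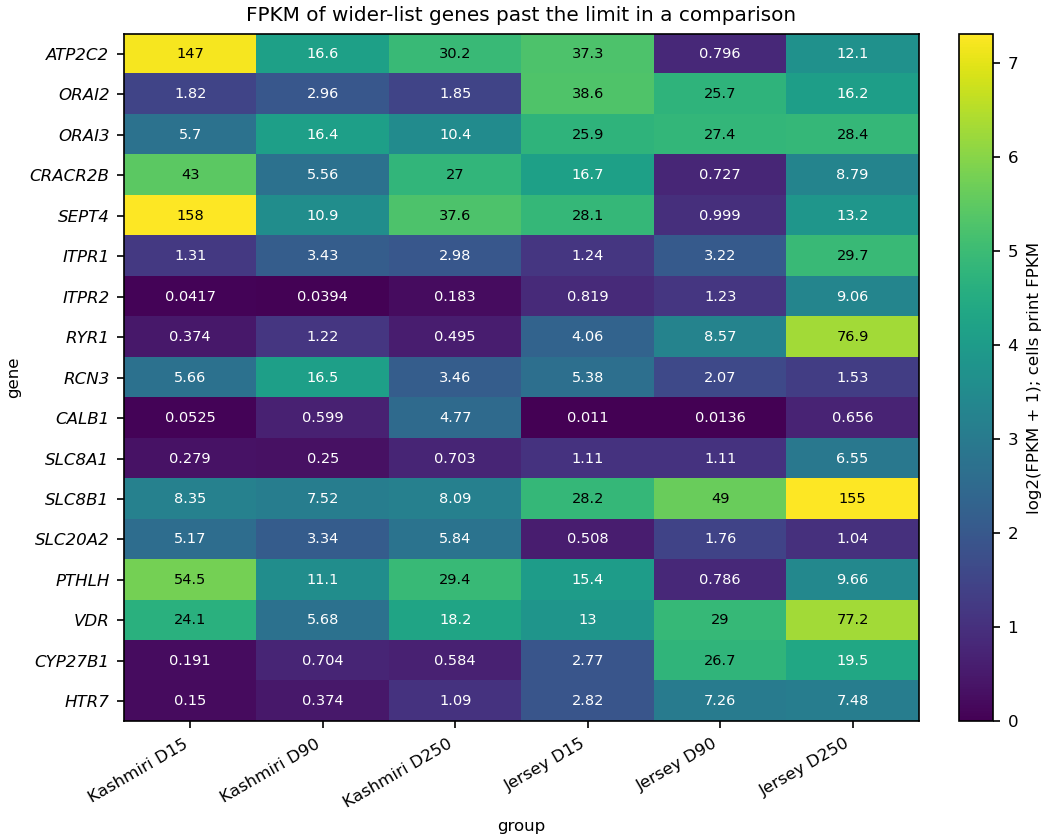
FPKM of the wider-list genes (rows) that were past the limit in at least 1 of the 9 comparisons, in the 6 groups (columns), coloured by log2(FPKM + 1) with the FPKM printed in each cell, from the authors' single value per group. ATP2C2, CRACR2B, SEPT4 and PTHLH were highest in Kashmiri at D15 and lowest in Jersey at D90, whereas RYR1, ITPR1, ITPR2, SLC8A1, SLC8B1 and VDR were highest in Jersey at D250.

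The calcium-binding proteins of the ER lumen stayed inside the limit over the stages. All 8 of this list were considered in each stage comparison. Calreticulin (CALR), the most abundant of them, was at 232, 304 and 181 FPKM in Kashmiri and at 368, 481 and 246 FPKM in Jersey. HSP90B1, an ER chaperone that also binds calcium, was at 95.0, 193 and 119 FPKM in Kashmiri and at 193, 297 and 143 FPKM in Jersey. RCN3 was past the limit between breeds at D90, 16.5 FPKM in Kashmiri and 2.07 in Jersey. Of the cytosolic binding proteins, calmodulin gene CALM2 lay between 189 and 580 FPKM, and CALB1, the calbindin of calcium-absorbing epithelia, reached 4.77 FPKM in Kashmiri at D250 and was under 1 FPKM elsewhere. The epithelial calcium channel TRPV6 reached 2.65 FPKM in the same group, was at most 0.143 FPKM elsewhere, and TRPV5 was at most 0.0666 FPKM.

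The other lists were led by genes inside the limit in every comparison. By mean FPKM these were ATP2A3 for the pumps, the Golgi calcium-binding protein gene NUCB1 (71.8 to 171 FPKM), the store-operated entry inhibitor SARAF (50.4 to 194), the ER calcium channel TMCO1 (18.4 to 41.7), the mitochondrial uniporter subunit SMDT1 (152 to 445), the mitochondrial phosphate carrier SLC25A3 (131 to 186) and BSG, basigin, a partner of the plasma membrane pumps (98.9 to 236).

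The genes most like SLC34A2 were sought by Pearson correlation of log2(FPKM + 1) over the 6 groups among 6420 named genes with a mean of at least 5 FPKM. They were HNRNPLL (r = 0.997), TGFBR3 (0.993), RHPN2 (0.990), POLR2M (0.989) and MTURN (0.987). The 6 points share the epithelial marker differences described above, and with so few points many genes reach a high r, so these values are a description. PTHLH came at rank 140 (0.926), the mammary transcription factor gene ELF5 at 242 (0.897), ATP2C2 at 342 (0.876) and KRT19 at 774 (0.768). TGFBR3, a co-receptor for transforming growth factor beta, was at 25.0, 4.79 and 9.31 FPKM in Kashmiri and at 3.22, 0.757 and 3.51 FPKM in Jersey. Like genes were sought for SLC34A2 alone among the members.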

How the data were processed

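After trimming with Trimmomatic, the authors mapped reads to UMD3.1, a bovine assembly, using Bowtie2 and TopHat, and Cufflinks and Cuffdiff gave the expression values. The deposited values are FPKM by the authors, 1 for each gene in each of the 6 groups, over 61264 entries of which 25121 carry a name. The columns named Local were taken as Kashmiri, the only other breed of the study. Reads of both breeds were aligned to the same Bos taurus assembly.

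Where a name had several entries, that with the highest mean FPKM was used. Log2 ratios were computed from the deposited FPKM with a pseudocount of 1, for genes with at least 1 FPKM in either group, and the limit was an absolute value of 2. With 1 value per group no test was made, and no interval was computed because the depth behind each FPKM is unknown. Family shares are percentages of summed FPKM.

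The members, the pathway lists and the cell type markers were chosen with earlier results of these data known. Genes were named by a rule: every member, every pathway gene past the limit in a comparison, the gene with the highest mean of each list, and the 5 genes most correlated with SLC34A2. HSP90B1, TRPV5, ATP2A1 and ATP2B4 were added after their values were seen, as were the ranks of PTHLH, ELF5, ATP2C2 and KRT19. As alternatives, FPKM were rescaled to the sum without 6 milk protein genes, by the upper quartile or to 5 epithelial genes, entries sharing a name were summed, the pseudocount was set to 0.1, the required level to 0.01 FPKM, and the limit to an absolute log2 value of 1. The code was tested on simulated data. Scripts ran under Python 3.11.15 with pandas 2.3.3, numpy 2.4.6 and, for figures, matplotlib 3.10.9. No sequences are shown, and gene coordinates were not used here.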

Additional observations from a re-analysis of the deposited data

Results flagged for a closer look

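Of 24 pairs of member and stage step, 9 had opposite signs in the 2 breeds. The same share over all genes was not counted, so this number cannot be read as a trait of these genes. With 1 value per group the difference between breeds was not tested, so these are values for a closer look.

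At D90 over D15, the log2 ratio of STIM1 was 1.18 in Kashmiri and -0.16 in Jersey, a difference (Jersey minus Kashmiri) of -1.34. That of ATP2C1 was -0.17 and 0.69, a difference of 0.87.

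At D250 over D90, SLC20A1 was at -1.07 in Kashmiri and 0.26 in Jersey, a difference of 1.33. ATP2C1 was at 0.85 and -0.26, a difference of -1.11. ORAI1 was at -0.18 and 0.60, a difference of 0.77, ATP2A2 at -0.37 and 0.27, a difference of 0.64, and STIM2 at -0.18 and 0.17, a difference of 0.35.

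At D250 over D15, SLC34A2 was at -1.60 in Kashmiri and 0.49 in Jersey, a difference of 2.09 and the largest of the 9. STIM1 was at 0.01 and -0.35, a difference of -0.36. At least 1 of the 2 signs changed with rescaling to the sum without milk proteins for STIM1 and ATP2C1 at D90 over D15, and for SLC20A1, ORAI1, ATP2A2 and STIM2 at D250 over D90. With rescaling to 5 epithelial genes, ATP2C1 at D250 over D90 turned from 0.85 to -1.00 in Kashmiri and STIM1 at D250 over D15 from -0.35 to 0.56 in Jersey, so that neither had opposite signs. The medians of all genes were then -1.72 and 0.96.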

How the results depend on the processing

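No leave-one-out and no paired analysis was possible because each group had 1 value. Of 324 log2 ratios of members under the 4 alternatives that can change any ratio (the pseudocount and 3 rescalings), 207 kept their direction and stayed within 0.58, 115 moved and 2 reversed among those past the limit, both of SLC34A2 with 5 epithelial genes: 0.41 for Kashmiri D90 over D15 and -0.10 for Jersey D250 over D90. Signs changed for 12 of 81 ratios with the sum without milk proteins, 4 with the upper quartile, 30 with the epithelial genes and 0 with the pseudocount. A limit of 0.01 FPKM and the sum of entries left the number of members past the limit as it was.

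The number past the limit was 1, 0 and 1 in Kashmiri (D90 over D15, D250 over D90, D250 over D15), 0, 1 and 0 in Jersey, and 1, 1 and 0 in Jersey over Kashmiri (D15, D90, D250). At an absolute log2 ratio of 1 it was 6, 3 and 3, then 4, 1 and 2, then 2, 3 and 2, beside 33.5%, 17.7%, 25.7%, 29.8%, 20.9%, 42.4%, 28.9%, 32.9% and 34.5% of all genes. A pseudocount of 0.1 gave 1 for Jersey D90 over D15 and for D250 over D15, and 2, 2 and 1 between breeds. The shares of all genes were 12.5%, 19.7%, 14.4%, 18.9% and 17.6% in that order. The upper quartile gave 0 for Jersey D250 over D90 and 1 between breeds at D250, beside 3.29% and 10.8% of all genes. The sum without milk proteins gave 0 and 1 for these and 2 between breeds at D90, beside 3.11%, 12% and 12.5%. The 5 epithelial genes gave 6 and 4 for Kashmiri D90 over D15 and D250 over D90, 7, 7 and 2 in Jersey, and 2 and 6 between breeds at D15 and D90. The shares of all genes were then 68%, 37%, 87%, 83%, 23%, 11% and 63%. The median of all genes moved to 2.54, -1.72, 4.29, -3.36, 0.96, 0.57 and 2.34. Of 63 counts over the wider list, 42 stayed within 1.5 times.

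With the sum without milk proteins, the genes past the limit upwards and downwards went from 264 and 583 to 406 and 381 for Kashmiri D90 over D15, from 98 and 128 to 455 and 41 for D250 over D90, and from 212 and 253 to 850 and 70 for D250 over D15. They went from 330 and 419 to 437 and 346 for Jersey D90 over D15, from 407 and 51 to 248 and 95 for D250 over D90, and between breeds from 723 and 237 to 908 and 126, from 738 and 579 to 976 and 430, and from 1272 and 159 to 828 and 624.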
